A study of Homo sapiens with 6 samples.

Results

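Retinoic acid receptors and the enzymes that make and clear retinoic acid were examined as a set of 10 genes for binding of the homeodomain factor GSX2. The set holds the receptor genes RARA, RARB, RARG, RXRA and RXRG, the synthesis genes ALDH1A1, ALDH1A2 and ALDH1A3, and the clearance genes CYP26A1 and CYP26B1. Binding was read from 3 peak lists, 1 for each replicate of chromatin immunoprecipitation and sequencing. A peak belonged to a gene when its strongest summit had that gene as the nearest protein-coding gene span, and peaks of the replicates that overlapped by at least 1 bp were joined into a region. By this rule, 4 of the 10 genes had a region, and the set held 18 of 15750 regions in all. They came from 13, 9 and 12 peaks in replicates 1, 2 and 3.

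All replicates came from H9, an established human embryonic stem cell line, differentiated toward progenitors like those of the lateral ganglionic eminence, the embryonic source of striatal neurons. The cells carried TRE3G 2xFLAG-GSX2 WT, a wild-type GSX2 transgene with a doubled FLAG tag under a doxycycline-responsive promoter, and received 100 ng/mL doxycycline for 12 hours from day 10. At day 10.5 the tagged protein was pulled down with M2, an antibody to FLAG, so the values concern the induced protein and not endogenous GSX2. The additions that the labels name are LDN193189 and SB431542, which block BMP and TGF-beta receptors, the Wnt blockers XAV939 and IWP2, and Activin A, with no retinoid among them. There was 1 group, so the data hold no contrast between conditions, and no expression values with which the identity of the cells could be checked by its markers. The 3 input libraries entered no analysis here. Peak strength is given as the authors' fold enrichment, the height of a peak as a linear ratio to its local background. On chromosomes 1 to 22 and X, replicates 1, 2 and 3 had 9859, 7471 and 9122 peaks, with median fold enrichment of 7.15, 7.73 and 7.48. The lists carry no counts of reads, so how deeply each replicate was sequenced is not known.

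Retinoic acid is made from vitamin A in a pair of oxidation steps, the last of them by the retinaldehyde dehydrogenases encoded by the ALDH1A genes. It binds the receptors RAR alpha, beta and gamma, which sit on DNA as partners of the RXR receptors and recruit corepressors without ligand and coactivators with it. CYP26 enzymes oxidise retinoic acid and so set where it can act. In the developing striatum, retinoic acid signalling is known for its part in the differentiation of projection neurons, and RARB is one of the receptor genes expressed there.

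No GSX2 peak overlapped the promoter of any of the 10 genes. RefSeq (GRCh38.p14, the build of hg38) lists 18 start sites for them, each with a window from 250 bases before to 50 bases after the start, and 0 of the 18 windows met a peak in any replicate. Of all 34961 promoter windows on the same chromosomes, 3.13% met one, so a count of 0 among 18 is near the general share. The 250 bases before 3 of these starts are shown. The first carries the element through which RARB answers to its own ligand, the second is the 1 window of the set with the homeodomain word TAATTA, and the last is the window closest to a peak. Capitals mark TAAT on either strand, the core that many homeodomain proteins read, and in the first sequence also a direct repeat of GTTCA of the kind that retinoic acid receptors bind.
RARB, start at 25428263, chr3:25428013-25428262, plus strand: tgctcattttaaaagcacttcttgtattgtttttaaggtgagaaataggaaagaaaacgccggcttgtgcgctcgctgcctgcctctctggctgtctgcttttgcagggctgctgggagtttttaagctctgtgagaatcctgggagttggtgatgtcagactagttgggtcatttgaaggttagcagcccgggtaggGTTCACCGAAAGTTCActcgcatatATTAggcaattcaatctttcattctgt
RARB, start at 25458310, chr3:25458060-25458309, plus strand: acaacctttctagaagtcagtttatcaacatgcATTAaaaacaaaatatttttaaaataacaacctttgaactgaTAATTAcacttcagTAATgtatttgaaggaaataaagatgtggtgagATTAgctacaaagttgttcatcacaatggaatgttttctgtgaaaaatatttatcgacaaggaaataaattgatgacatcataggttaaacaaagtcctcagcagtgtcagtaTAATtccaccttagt
RXRG, start at 165445126, chr1:165445127-165445376, minus strand: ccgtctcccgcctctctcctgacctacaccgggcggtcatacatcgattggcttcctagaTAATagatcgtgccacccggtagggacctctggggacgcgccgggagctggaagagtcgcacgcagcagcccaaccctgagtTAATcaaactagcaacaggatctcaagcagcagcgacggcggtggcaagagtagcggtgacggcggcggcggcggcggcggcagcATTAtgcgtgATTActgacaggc
The gap from each of these starts' windows to the nearest peak was 27.8 kb for the first, 1.64 kb for the second and 598 bp for RXRG.

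The repeat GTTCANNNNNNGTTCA, searched on both strands, was found in 2 of the 18 windows, 1 of RARB and 1 of CYP26A1. This motif was added to the search from knowledge of RARB after the windows were in hand. The RARB match was thus fixed beforehand, and the count of 2 does not measure enrichment.
RARB, chr3:25428211-25428226, plus strand: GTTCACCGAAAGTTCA
CYP26A1, chr10:93073803-93073818, minus strand: GTTCACCCAAAGTTCA
Both genes are textbook targets of retinoic acid. Over all 35116 promoter windows of the table, 0.0484% held this repeat in the 250 bases before the start. TAAT was found in 10 of the 18 windows, against 47.4% of all windows. The longer homeodomain word TAATTA, which holds TAAT on each strand, stood in 1 of them, the RARB window at 25458310, against 4.35% of all. AGGTCA, a half-site of nuclear receptors, was in 3, against 12.1% of all. These are matches of letters, and the sequences under the peaks themselves were not read.

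Among the 10 genes, RARB, RXRA and RXRG had at least 1 region with a peak in all 3 replicates, and all of these are receptor genes. With distance taken to the nearest gene end in place of the span, RARB lost its shared region to TOP2B, and 2 genes remained, RXRA and RXRG. That switch rests on nearly equal distances. The summit lies inside RARB, 306.204 kb from the nearer RARB end and 306.177 kb from TOP2B. By the rule used here the count is 3 of 10, against 12.5% of the 19974 protein-coding genes. With peaks of any replicate, ALDH1A2 joined them, giving 4 of 10 against 33.1% of all genes. The 95% exact Clopper-Pearson interval of 3 of 10 runs from 6.67% to 65.2%, and covers counting error only. Both background shares lie within the intervals of the members' shares, which for 4 of 10 runs from 12.2% to 73.8%. No region was nearest to RARA, RARG, ALDH1A1, ALDH1A3, CYP26A1 or CYP26B1 in any replicate.

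Of the 18 regions, 4 held a peak of all 3 replicates (22.2%, exact interval 6.41% to 47.6%), against 22.4% of all regions. Another 8 were found in 2 replicates (44.4%, exact interval 21.5% to 69.2%, against 22.7% of all) and 6 in 1 (33.3%, exact interval 13.3% to 59.0%, against 54.9% of all). RARB held 10 of the 18 regions and 6 of the 8 found in 2 replicates. The intervals treat regions as independent, which regions of 1 gene may not be. Inside the gene span lay 14 of the 18, 10 of them in RARB, and 1 was within 1 kb of an end of its gene. The shares of all regions in these places were not counted, so neither number is read as a trait of the set. The median fold enrichment of the members' peaks was 7.98, 8.49 and 8.11 in replicates 1, 2 and 3, near the medians of the whole lists. Peaks above their list's median numbered 8 of 13, 6 of 9 and 6 of 12.

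**Figure D1:**
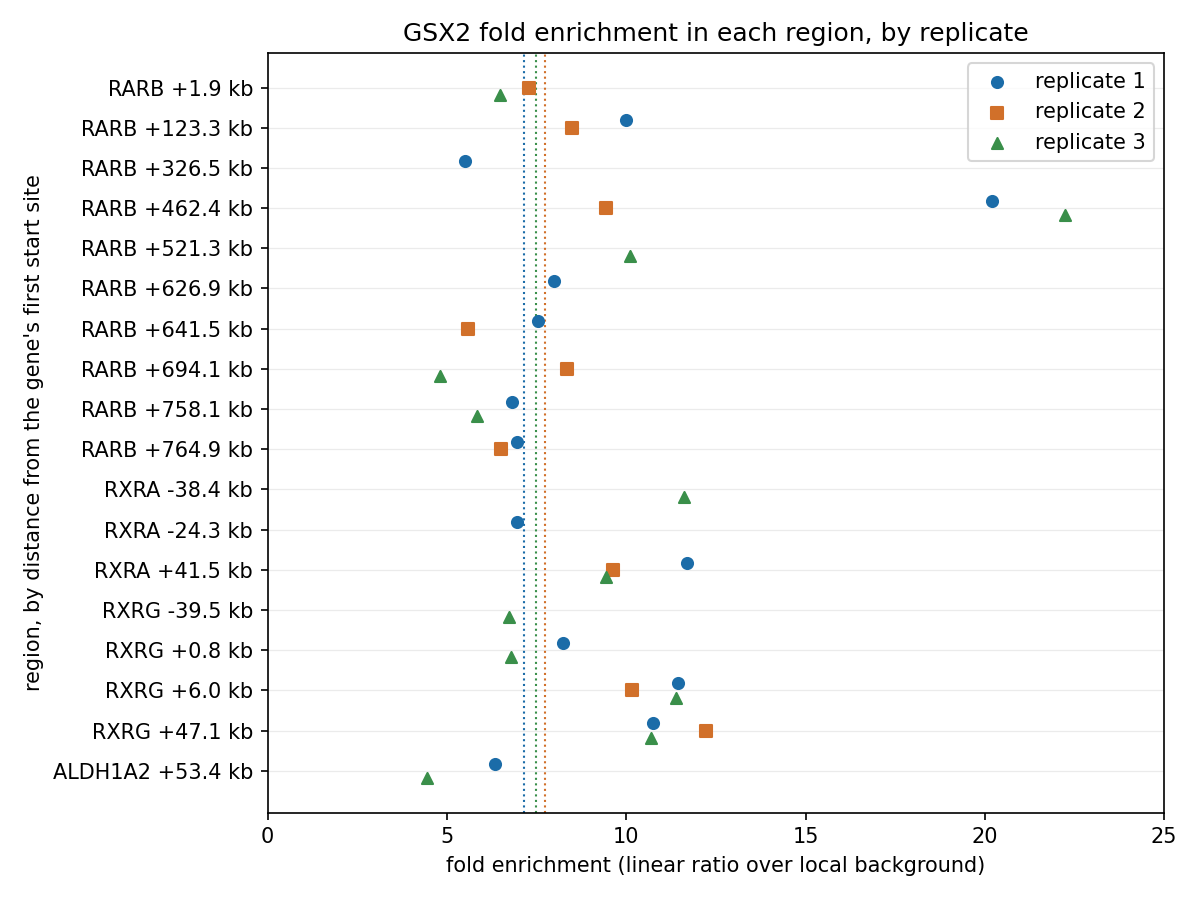
Fold enrichment (x axis, linear ratio) in each of the 18 regions (y axis, labelled by gene and distance of the summit from its first start site, positive downstream), with 1 point for each replicate that had a peak; dotted lines are the medians of the 3 lists. RARB at 462 kb holds the highest points, 20.2 and 22.2, and the replicate 2 point of the same region is at 9.43.

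RARB encodes retinoic acid receptor beta, and its span of 769 kb on the plus strand of chromosome 3 (24829321 to 25597932) held 10 regions, all of them inside it. The strongest lay at 25291373 to 25292015, with the summit 462 kb downstream of the first start and 49.1 kb upstream of the second. Fold enrichment there was 20.2 in replicate 1, 9.43 in replicate 2 and 22.2 in replicate 3, with a mean of 17.3 ± 6.9 (SD, n = 3). Replicate 2 was the low one, and stood at percentile 70.8 of its own list where the others stood at 98.2 and 98.6. Without replicate 2 the mean was 21.2. The 3 summits nonetheless fell within 18 bp of each other. By mean fold enrichment the region ranked 258 among the 3534 regions of all 3 replicates, above 92.7% of them.

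The other 9 RARB regions were weaker and none was found in every replicate. Of these, 6 had peaks in 2 replicates. The region nearest to the first start, 1.95 kb downstream of it, had values of 7.29 in replicate 2 and 6.48 in replicate 3, and no peak in replicate 1. Its strongest summits in those replicates lay 193 bp apart, and the replicate 3 peak held 2 summits. At 123 kb downstream, replicates 1 and 2 had values of 9.99 and 8.49, with summits 10 bp apart.

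A group of 3 RARB regions lay in the stretch that holds the later start sites, from 25340802 to 25458310, or just beyond it. One at 25350452 to 25350770, 9.77 kb downstream of the start at 25340802, had a peak of 10.1-fold in replicate 3 and none in the others. Another at 25456093 to 25456423, 2.09 kb upstream of the last start, had a peak of 7.98-fold in replicate 1 alone. The third, 12.5 kb downstream of that start, had 7.55 in replicate 1 and 5.59 in replicate 2, the latter at percentile 15.2 of its list. So the peaks closest to the later starts were each seen in 1 or 2 replicates.

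Toward the end of the gene, 3 more regions had peaks in 2 replicates. At 694 kb from the first start the values were 8.34 in replicate 2 and 4.80 in replicate 3, the latter at percentile 6.03 of its list. At 758 kb they were 6.81 in replicate 1 and 5.84 in replicate 3, the latter at percentile 22.3. The last, 765 kb from the first start and 3.76 kb before the end of the span, had 6.97 and 6.52 in replicates 1 and 2, with summits 2 bp apart. It lay 3.73 kb from TOP2B, the topoisomerase gene whose span meets that end. A last RARB region, 327 kb from the first start, was seen in replicate 1 alone at 5.51-fold.

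**Figure D2:**
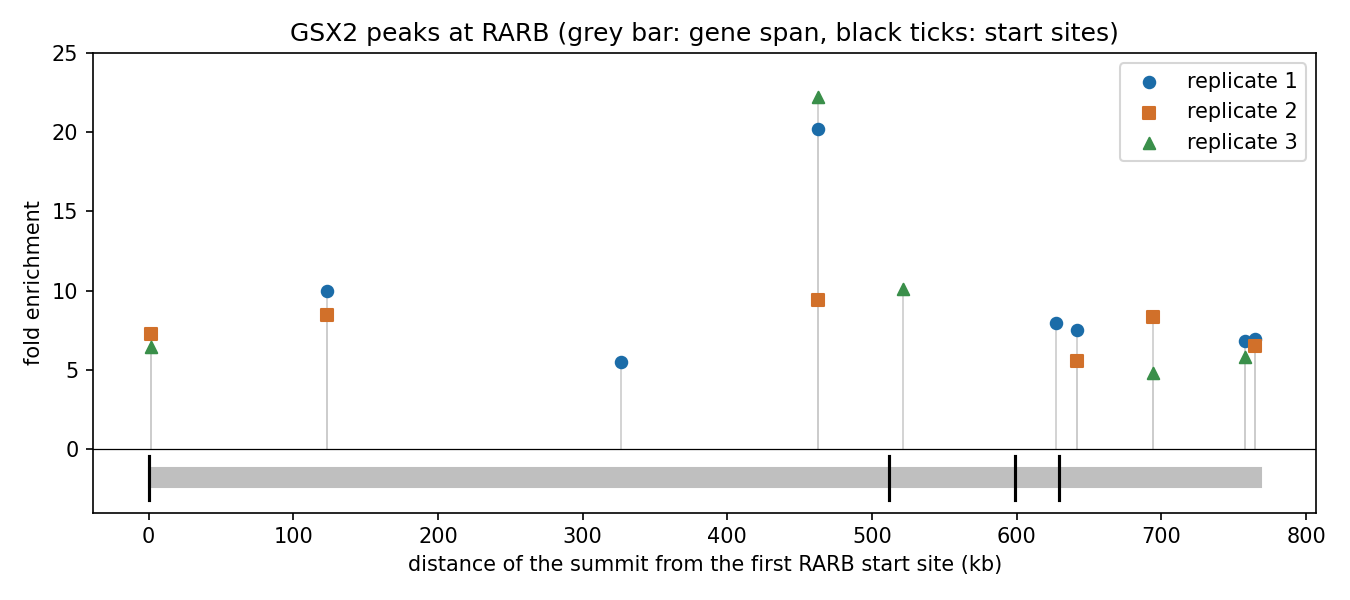
Peaks at RARB: distance of the region's summit from the first start site (x axis, kb) and fold enrichment (y axis), 1 point per replicate with a peak; the grey bar is the gene span and the black ticks are the 4 start sites. The region at 462 kb is the 1 place where all 3 replicates have a point, and the other 9 lie between 4.80 and 10.1.

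RXRG, which encodes the RXR partner gamma, had the most regions per length of the 10 genes, 3.45 for each 100 kb over which it is the nearest gene. It lies on the minus strand of chromosome 1 (165400922 to 165445126) and had 4 regions, 2 of them in all 3 replicates. The first, at 165397849 to 165398199, was 2.87 kb beyond the end of the gene, with values of 10.7, 12.2 and 10.7 and a mean of 11.2 ± 0.88-fold (SD, n = 3). Its summits fell within 12 bp, the closest of the set's shared regions. It lay between RXRG and LMX1A, a LIM homeodomain gene 41.3 kb away.

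The second shared RXRG region, at 165438781 to 165439299 inside the gene, had its summit 6.04 kb downstream of the start. Its values were 11.4, 10.2 and 11.4, a mean of 11.0 ± 0.72-fold (SD, n = 3). Unlike at the main RARB region, the replicates lay close together at both RXRG regions, with coefficients of variation of 7.87% and 6.53% against 39.8%. The median over all 3534 shared regions was 19.5%.

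Nearer still to the RXRG start, 0.802 kb downstream of it, a region at 165444174 to 165444479 had values of 8.23 in replicate 1 and 6.77 in replicate 3, and no peak in replicate 2. It was the 1 region of the set within 1 kb of a gene end. Another region, 39.5 kb upstream of the start, was seen in replicate 3 alone at 6.74-fold, inside the noncoding gene LRRC52-AS1 and between RXRG and LRRC52. One further region within 100 kb of RXRG, 47.4 kb away, was nearest to LMX1A and had values of 5.94 and 6.80 in replicates 2 and 3.

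RXRA, which encodes RXR alpha, a widely expressed partner of many nuclear receptors, had 3 regions on chromosome 9, where its span runs from 134326455 to 134440585 on the plus strand. One was found in all replicates, at 134367828 to 134368228 inside the gene, 41.5 kb downstream of the first start and 11.3 kb upstream of the second. Its values were 11.7, 9.62 and 9.44, a mean of 10.3 ± 1.3-fold (SD, n = 3), and its summits fell within 20 bp.

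The other RXRA regions lay upstream, between RXRA and WDR5, each in 1 replicate. At 38.4 kb from the first start, replicate 3 had a peak of 11.6-fold that neither other list holds. Of the 1292 peaks of replicate 3 that were at least as strong, 2.48% were found in that replicate alone and 85.4% in all 3. For the replicate 3 peak of 10.1-fold at RARB, the corresponding shares were 5.42% and 77.5% of 1993 peaks. At 24.3 kb from the RXRA start, replicate 1 alone had a peak of 6.97-fold, near the middle of its list.

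**Figure D3:**
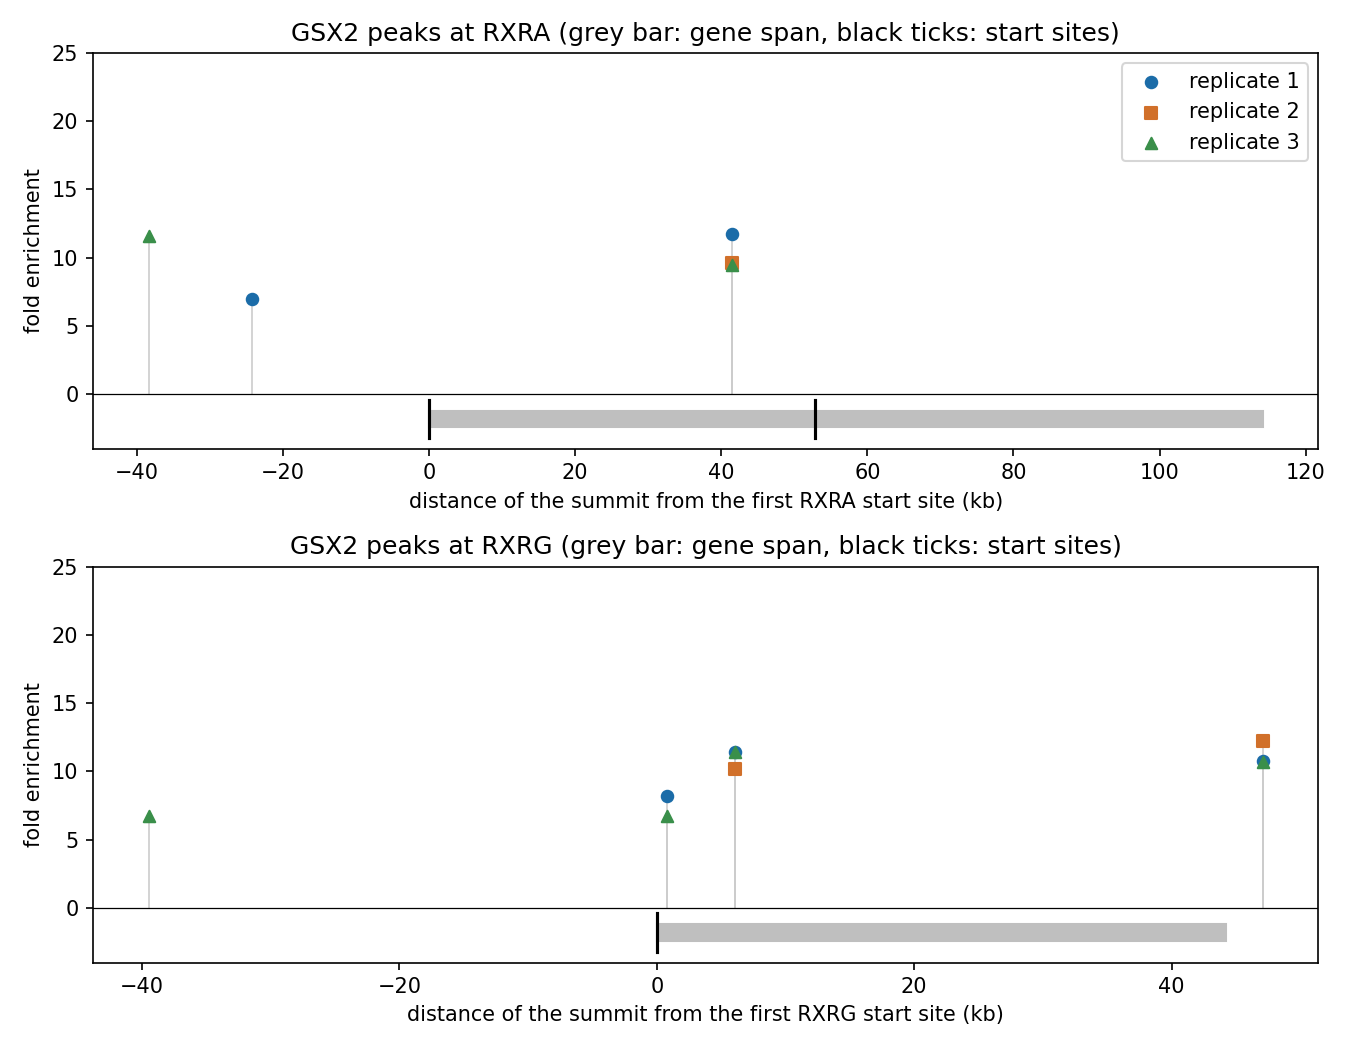
Peaks at RXRA (upper panel) and RXRG (lower panel): distance of the region's summit from the first start site (x axis, kb, positive downstream) and fold enrichment (y axis), 1 point per replicate with a peak, the grey bar being the gene span and black ticks the start sites. Points of all 3 replicates stand together at 41.5 kb in RXRA and at 6.04 and 47.1 kb in RXRG, between 9.44 and 12.2.

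Ordered by mean, the shared regions ran from RARB (17.3 ± 6.9) through both of RXRG (11.2 ± 0.88 and 11.0 ± 0.72) to RXRA (10.3 ± 1.3, SD, n = 3 for each). The range of the RARB region, 9.43 to 22.2, covers all values of the other 3, and their own ranges overlap, so this order is not resolved. With the mean of the shared regions in the whole data at a median of 9.49, quartiles 7.74 and 12.1, the RXRG and RXRA regions lay between the median and the upper quartile. In summit position the 4 regions were within 12 to 42 bp over the replicates, against a median of 30 bp over all shared regions.

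Of the synthesis genes, ALDH1A2 alone had a region. It encodes the retinaldehyde dehydrogenase that makes most retinoic acid of the early embryo. The region, at 58012179 to 58012522 on chromosome 15 inside the gene, lay 1.67 kb downstream of the second of 2 start sites. Its values were 6.35 in replicate 1 and 4.45 in replicate 3, with no peak in replicate 2. The replicate 3 value stood at percentile 1.83 of its list, and its summit was 136 bp from that of replicate 1. It was the weakest 2-replicate region of the set.

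ALDH1A3, the retinaldehyde dehydrogenase of the lateral ganglionic eminence and eye, had no region of its own. The closest peak was 5.47 kb beyond its span, inside LRRK1, at 9.45-fold in replicate 2 alone. For ALDH1A1 the closest peak was 248 kb away. The nearest regions of all 3 replicates were 593 kb from ALDH1A3, 716 kb from ALDH1A2 and 470 kb from ALDH1A1, so none of the synthesis genes had one within 100 kb.

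Neither clearance gene had a region, though CYP26A1 had peaks on its flank. There were 4 regions within 100 kb of it, all given by the rule to EXOC6, a gene of the exocyst complex. The closest, 17.6 kb from CYP26A1 at 93055700 to 93056120 on chromosome 10, had values of 7.57 and 9.16 in replicates 1 and 2. It was 4.89 kb from CYP26C1, the clearance gene next to CYP26A1. One at 77.9 kb had 12.5 in replicate 1 and 8.69 in replicate 3, and those at 79.3 and 80.0 kb were seen in 1 replicate each. CYP26B1 had its closest peak 277 kb away. The nearest regions of all 3 replicates were 108 kb from CYP26A1 and 415 kb from CYP26B1.

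Among the receptor genes, RARA and RARG had no region. RARA had 1 peak within 100 kb, 18.5 kb away inside CDC6, at 4.99-fold in replicate 1 alone. RARG had none, and its closest peak was 147 kb away. The genes named here as holding the peaks near a member were named after their values were seen.

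The genes differ widely in territory, the length of chromosome nearest to each of them, measured here on a 1 kb grid. RARB has a territory of 935 kb, longer than that of all but 2.43% of genes, and 172 genes, RARB among them, had 10 or more regions. RARG and ALDH1A3, with 29 and 38 kb, have territories shorter than the median gene's 56 kb, and RARA, with 53 kb, lies near that median. Per 100 kb of territory, RXRG had 3.45 regions, RARB 1.07, RXRA 1.01 and ALDH1A2 0.376. Over the summed territories of all genes there were 0.514 regions per 100 kb, and over those of the 10 genes together 0.785. The rate for all genes takes each region a single time, but a stretch inside overlapping genes counts for each of them. It also includes gaps in the assembly, so it is only a rough measure beside the rate of the 10 genes. ALDH1A1, CYP26B1 and CYP26A1 had none in 183, 254 and 121 kb. The part of territory length in which genes had regions was not tested.

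**Figure D4:**
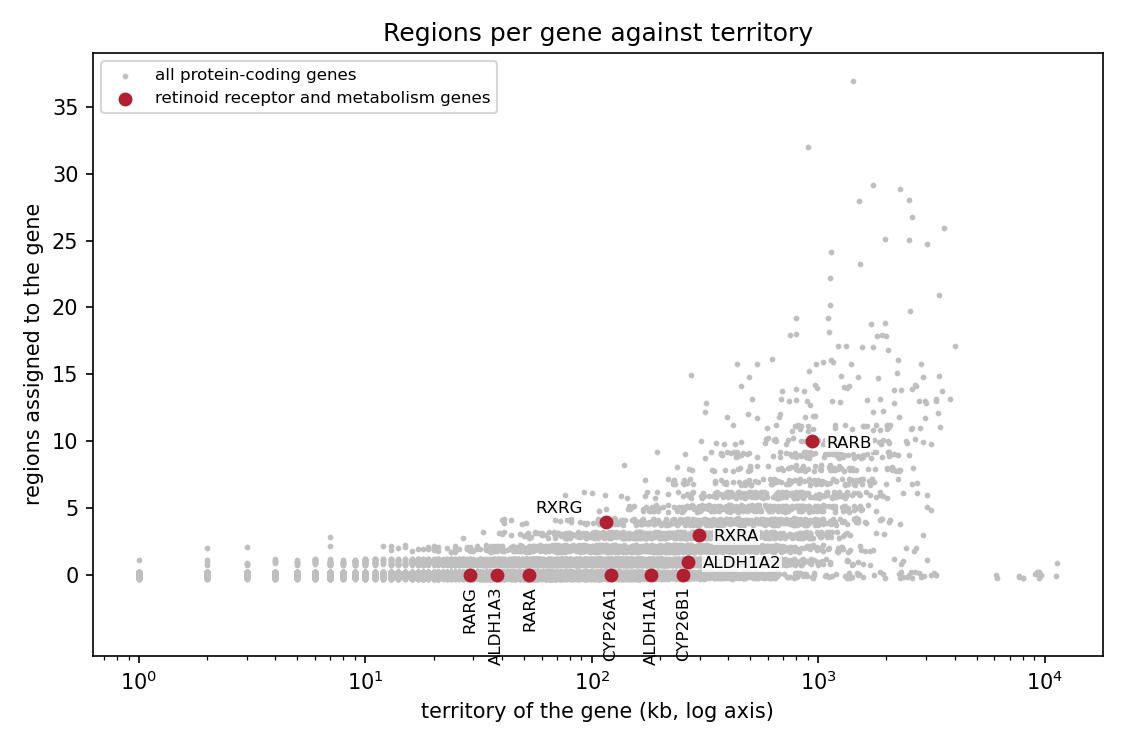
Regions assigned to each protein-coding gene (y axis, any number of replicates) against its territory (x axis, kb, log axis); grey points are all genes, spread slightly up and down to separate them, and red points are the 10 genes. RARB stands at 10 regions and 935 kb, RXRG at 4 and 116 kb, and 6 of the red points at 0; 48 genes with no territory on the 1 kb grid are not drawn.

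Other genes of the pathway were counted from a list of 31, all of them measured: 4 had a region of all 3 replicates, and 14 had a region of any replicate. That is 12.9% and 45.2%, beside 12.5% and 33.1% of all protein-coding genes. By role these were 1 of 14 further enzymes of retinol, retinal and carotenoids, 0 of 7 uptake and carrier proteins and 3 of 8 receptor coregulators for the shared regions. RXRB, the remaining RXR gene, and CYP26C1 had no region. The shared region closest to CYP26C1, given by the rule to EXOC6, was 95.3 kb away (6.06 ± 0.11-fold, SD, n = 3).

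The enzyme was RDH10, which carries out the first oxidation, from retinol to retinal. It had 2 shared regions in a territory of 78 kb, the stronger 45.4 kb away (15.5 ± 5.9-fold, SD, n = 3) and the other inside the gene (11.1 ± 0.59-fold, SD, n = 3). Among coregulators, TBL1XR1, a subunit of the NCOR corepressor complex, had 6 shared regions, the strongest at 12.4 ± 1.8-fold (SD, n = 3) inside the gene. NCOR1, the corepressor that unliganded receptors recruit, had 1 at 11.1 ± 1.6-fold (SD, n = 3), and NCOA2, a coactivator, had 2, the stronger at 10.5 ± 1.3-fold (SD, n = 3). TBL1XR1 has a territory of 1455 kb, longer than that of RARB. NCOA2 and NCOR1 have territories of 424 and 187 kb, also longer than the median gene's 56 kb.

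**Figure D5:**
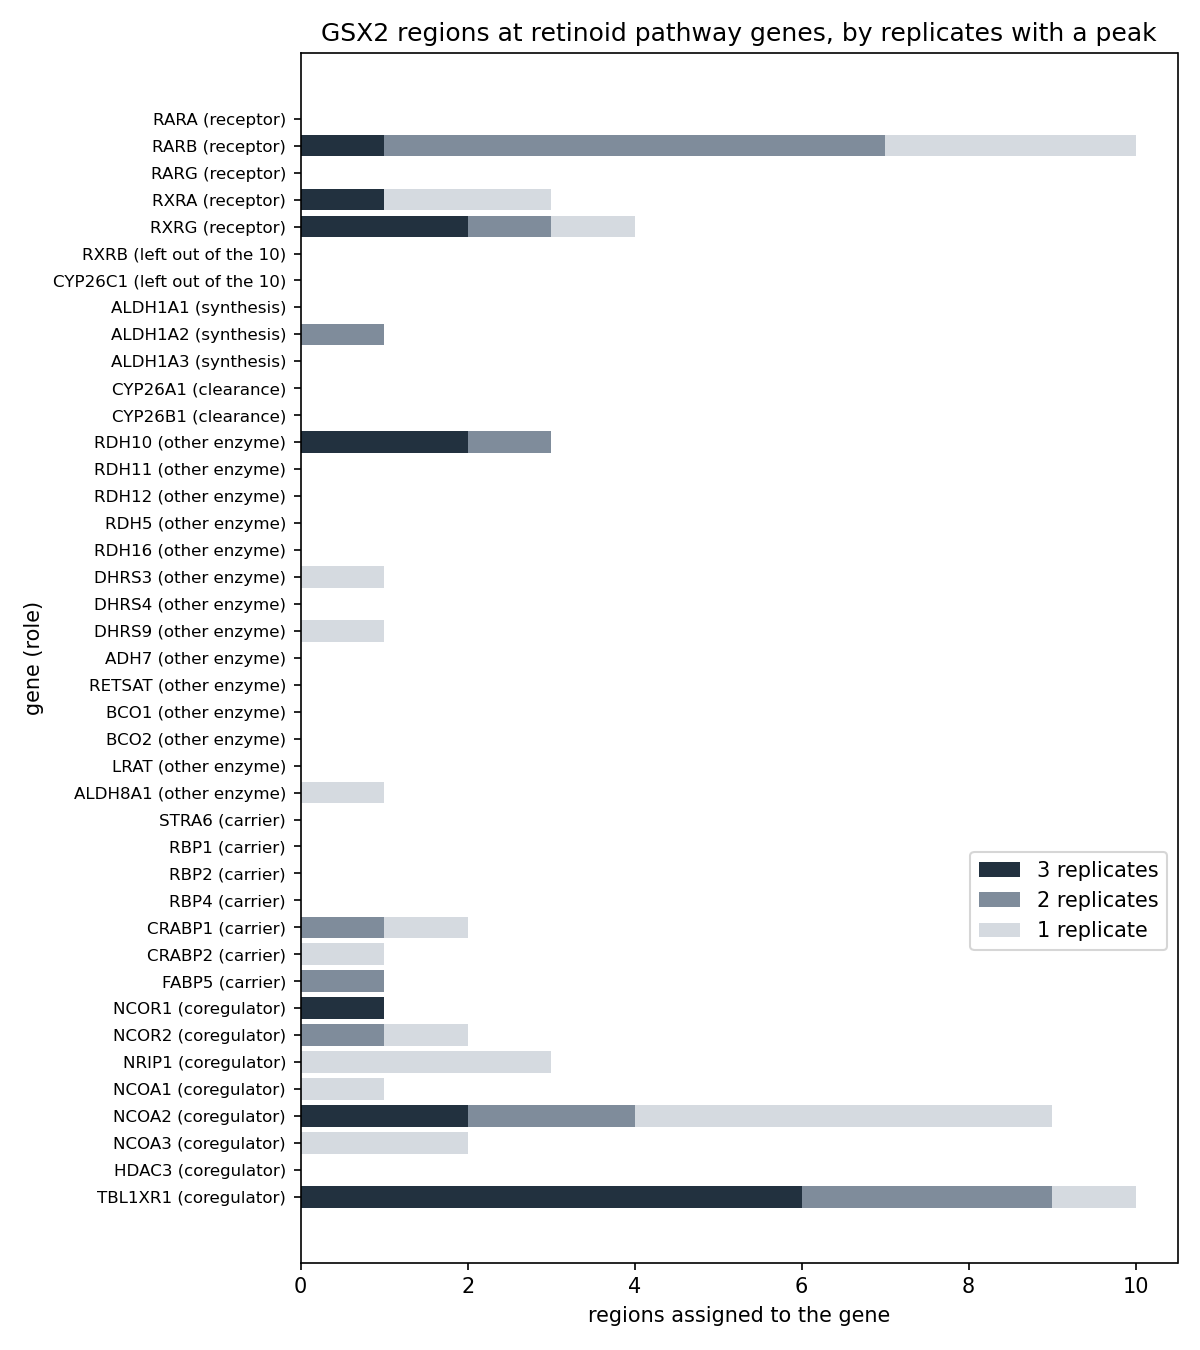
Regions assigned to each of the 10 genes and the 31 other retinoid pathway genes (x axis), with genes and roles on the y axis and bars divided by the number of replicates with a peak. RARB and TBL1XR1 have 10 regions each, of which 1 and 6 hold all 3 replicates, and RDH10 has 3, of which 2 do.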

How the data were processed

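Peaks of FLAG-tagged GSX2 were taken from 3 lists deposited by the authors, 1 for each ChIP replicate, with peaks called per replicate. The submitters' processing notes list hg38 as the build and name MACS3, Bowtie2, deepTools, SAMtools and Trim Galore. All deposited peaks had a −log10 q above 3. Any other setting of the peak calls, such as the control or a version, is not given in the sources used here. Deposited fold enrichment is a linear ratio. The authors' −log10 p and −log10 q came with it, and the deposited score, −log10 q multiplied and truncated, was not used.

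Intervals with several summits kept the summit of highest fold enrichment, which gave 9936, 7535 and 9204 intervals. Of these, 77, 64 and 82 off chromosomes 1 to 22 and X were left out. Each peak went to the nearest of 19974 protein-coding spans (RefSeq, GRCh38.p14), ties to each gene, and was then merged within its gene by 1 bp overlap. All 10 members and all 31 other pathway genes matched by symbol. Members and lists were chosen with earlier results of these data known. No test was run, since there is 1 group; values are described with SDs over 3 replicates and exact 95% intervals of shares. The labels number the replicates without saying whether they were separate cultures, so the spread may be partly technical. Named genes were all members, RXRB, CYP26C1, up to 6 other pathway genes with the strongest shared region, and neighbours with a member's region in between. Assignment to the nearest gene and merging were checked on simulated peaks at genes that did not overlap, and this check covered no other step. Python 3.11.15, pandas 2.3.3 and SciPy 1.17.1 were used.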

Additional observations from a re-analysis of the deposited data

How the results depend on the processing

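RARB, RXRA and RXRG each kept a region of all replicates with peaks of −log10 q of at least 10 only, with a required overlap of 50% of the shorter peak, with noncoding genes included, with regions within 100 kb only and, an alternative chosen after seeing the data, with peaks merged before assignment. There were 4 such regions under each of these, while the regions of the set in all fell from 18 to 12 with the stricter q-value and to 15 with noncoding genes. With distance taken to the nearest gene end in place of the span, the regions of the set fell to 11. The shared ones fell to 3, in RXRA and RXRG, because the main RARB region then went to TOP2B. Its summit, inside RARB, is 306.204 kb from the nearer RARB end and 306.177 kb from TOP2B, a near tie. Asking for at least 2 replicates gave 12 regions in 4 genes. Leaving out 1 replicate, which asks for 2 lists in place of 3, gave 6 to 7 shared regions in 3 to 4 genes, of 15 to 18 in all: 6 without replicate 1, 7 without replicate 2 (ALDH1A2 included) and 7 without replicate 3. For each gene, the region strongest over all 3 replicates was followed as a replicate was left out. Its mean ran from 14.8 to 21.2 for RARB, from 9.53 to 10.7 for RXRA and from 10.7 to 11.5 for RXRG. Without replicate 2 the other shared RXRG region was the higher, at 11.4-fold in both replicates 1 and 3. No paired analysis was possible because the 3 input libraries that share replicate numbers with the ChIP libraries have no values here. Depth is unknown, so a missing peak can reflect depth.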
